A study of Mus musculus with 24 samples.

Results

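The miR-30 family of the mouse carotid intima is described here through its 5 main strands, miR-30a, miR-30b, miR-30c, miR-30d and miR-30e. They were the probes of the array whose miRNA name, without the species prefix, equalled a member name, and all 5 members were found among 655 probes. Total RNA was taken from male C57Bl6 mice 6 to 8 weeks old, by flushing the innermost layer of the carotid artery with a lysis reagent, and was labelled with Cy3 for Illumina miRNA bead arrays. The left carotid had 3 of its 4 caudal branches tied (partial ligation), which brings low and oscillating flow, and the right carotid was the comparison vessel. The 4 groups of 6 arrays were the left and the right carotid at 12 h and at 48 h after surgery. No sham-operated or unoperated arteries were among the groups, so flow, surgery and body side cannot be told apart. At 12 h the 6 arrays of each artery formed repeat pairs (rank correlation 0.986 to 0.998, against at most 0.874 for other pairs) and were counted as 3 samples. At 48 h no such pairs occurred and 6 samples per artery entered the comparison. The labels do not say that the samples came from separate animals, so the spread behind each p-value is that of the samples at hand and may in part be technical.

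miRNAs are short RNAs that pair with target messenger RNAs mainly through bases 2 to 8 of their 5′ end, the seed, and lower the targets' output. Members of a family share the seed and so can share targets. In cultured human endothelial cells, laminar flow and the transcription factor KLF2 raise miR-30 members, which lower the vessel-destabilising factor angiopoietin-2, and in zebrafish and human endothelium miR-30 restrains the Notch ligand DLL4. Each hairpin yields a main strand and a passenger strand, written with an asterisk.

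The mature sequences show how closely the members resemble each other and which bases can tell them apart. They are given 5′ to 3′ from RefSeq (GRCm38.p6) with the seed in capitals. The first 3 lines are members, and the fourth is the other miRNA of the array that carries the seed.
miR-30a: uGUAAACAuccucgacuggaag
miR-30c: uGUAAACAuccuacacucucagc
miR-30e: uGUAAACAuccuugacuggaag
miR-384-5p: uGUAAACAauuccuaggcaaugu

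All 5 members shared their first 11 bases, and 6 probes of the array carried this seed. miR-30a and miR-30e differed at 1 of 22 bases, C13U, counted from the 5′ end with the base of miR-30a first. miR-30a and miR-30c differed at 5 of the 22 bases compared. The array's probes for miR-30a and miR-30e differed at the same single base, shown in capitals in the probe sequences as the files give them.
miR-30a probe: gtaaacatcctCgactgga
miR-30e probe: gtaaacatcctTgactgga

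Whether either RNA bound the other's probe was not tested. At 48 h the miR-30a probe was detected on 12 of 12 arrays and the miR-30e probe on 4, so the probes did not read alike. The passenger strands of both miR-30c hairpins, with bases 2 to 8 in capitals, differed from each other at 3 of 22 bases and do not carry the family's seed. They are shown because miR-30c itself is identical from both hairpins and only these strands separate its sources.
miR-30c-1*: cUGGGAGAggguuguuuacucc
miR-30c-2*: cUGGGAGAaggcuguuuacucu

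The files place the family at 3 pairs of neighbouring hairpins, in a genome build they do not name. miR-30a lies on chromosome 1 from position 23279112 (plus strand), 19480 bases from miR-30c-2*. miR-30b and miR-30d lie on chromosome 15 from positions 68169053 and 68172841 (minus strand), 3788 bases apart. miR-30e lies on chromosome 4 from position 120445287 (minus strand), 3114 bases from miR-30c-1*. In RefSeq's annotation the hairpins of miR-30c-1 and miR-30e lie within Nfyc, which encodes a subunit of the transcription factor NF-Y, and the other 4 hairpins lie in no other gene.

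Depth and sample make-up were examined before the members. The arrays detected 335 to 431 of 655 probes at a detection p under 0.05, and the number of arrays limits the precision. Both endothelial markers (miR-126-5p and miR-126-3p) and both smooth muscle markers (miR-145 and miR-143) were detected on every array, so the flushed intima held signal of both cell types. Summed normalized signals of the endothelial markers at 48 h ranged from 7010 to 22794 on the left and from 3491 to 28733 on the right, and those of the smooth muscle markers from 27611 to 36328 and from 31297 to 40522. Leukocyte markers summed to 19298 to 28516 on the left and 3390 to 18318 on the right at 48 h, without overlap, although 0 of the 3 tested passed the limma threshold. Erythroid markers summed to 22407 to 37453 on the left and 25570 to 43239 on the right at 48 h. These sums overlapped, as did those of striated muscle, fibroblast, epithelial and neuronal markers. At 12 h the neuronal sums did not overlap (1459 to 6009 on the left, 877 to 1295 on the right), and the sums of all other lists did. Whether this make-up contributed to any value below was not tested. In such bulk RNA, fewer cells of a type and less RNA per cell cannot be told apart. Left sample 3 at 48 h stood apart from the other left samples of its time: 14 tested probes lay more than 3 log2 units below the next lowest left sample, against 1 to 4 in each of the other left samples and, within the right artery, 0 to 6. Its 369 detected probes lay within the range of all arrays. Those 14 probes included miR-30c and miR-30d, together with let-7c, let-7g, miR-26b, miR-29a, miR-29b, miR-31 and miR-152, so the values of the members that rest on this sample are given with and without it.

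At 12 h no member passed the test between the arteries. Raw signals had their background removed and were brought to common quantiles separately for each time, and limma compared the log2 levels. A probe passed where its p, after Benjamini-Hochberg adjustment over every probe in the fit, was under 0.05. All 5 members were detected on 12 of 12 arrays and were tested. Of all 430 probes tested at 12 h, 2 (0.465%) passed, and 0 of 5 members did (41 probes had an unadjusted p under 0.05, none of them a member).

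miR-30c, the member made from both chromosomes 1 and 4, had the least spread at 12 h. Its log2 levels were 13.91, 14.03 and 13.90 in the left samples and 14.01, 14.002 and 14.05 in the right samples. The 6 values lay close together and the arteries overlapped, with left sample 2 inside the right range. The change was -0.08 ± 0.04 (log2, left minus right ± SE, n = 3 each; limma adjusted p = 0.512), with a 95% interval from -0.19 to 0.03.

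miR-30d, which shares its locus with miR-30b, stood at 13.36, 13.63 and 13.51 on the left and at 13.70, 13.57 and 13.72 on the right. All left samples were below the mean of the right samples, but left sample 2 exceeded the lowest right sample. The change was -0.16 ± 0.09 (log2 ± SE, n = 3 each; limma adjusted p = 0.502).

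miR-30a measured 12.84, 13.25 and 13.21 on the left and 13.05, 13.005 and 13.53 on the right. miR-30b measured 12.76, 13.27 and 13.04 on the left and 12.86, 13.29 and 12.61 on the right. For both, the right samples spanned a wider range than the difference between the arteries. The changes were -0.10 ± 0.19 for miR-30a and 0.11 ± 0.22 for miR-30b (log2 ± SE, n = 3 each; limma adjusted p = 0.874 for both), and the 95% intervals ran from -0.56 to 0.36 and from -0.43 to 0.64.

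miR-30e, whose hairpin lies beside that of miR-30c-1, stood at 7.99, 10.86 and 11.08 on the left and at 10.52, 10.27 and 11.11 on the right. Left sample 1 was low on both of its repeat arrays, and the other left samples lay among the right samples. The change of -0.65 ± 0.90 (log2 ± SE, n = 3 each; limma adjusted p = 0.845) became 0.34 without left sample 1. The median change of the members was -0.10, beside -0.05 over all probes tested, and 4 of 5 members were below 0. With each array scaled to its 75th percentile instead, the median over all probes moved to 0.07, and relative to it the members ranged from -0.56 for miR-30e to 0.01 for miR-30b, with 0 of 5 past the threshold. All 5 members overlapped between the arteries, against 19.1% of all probes tested that did not (13% with the left below the right).

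**Figure D1:**
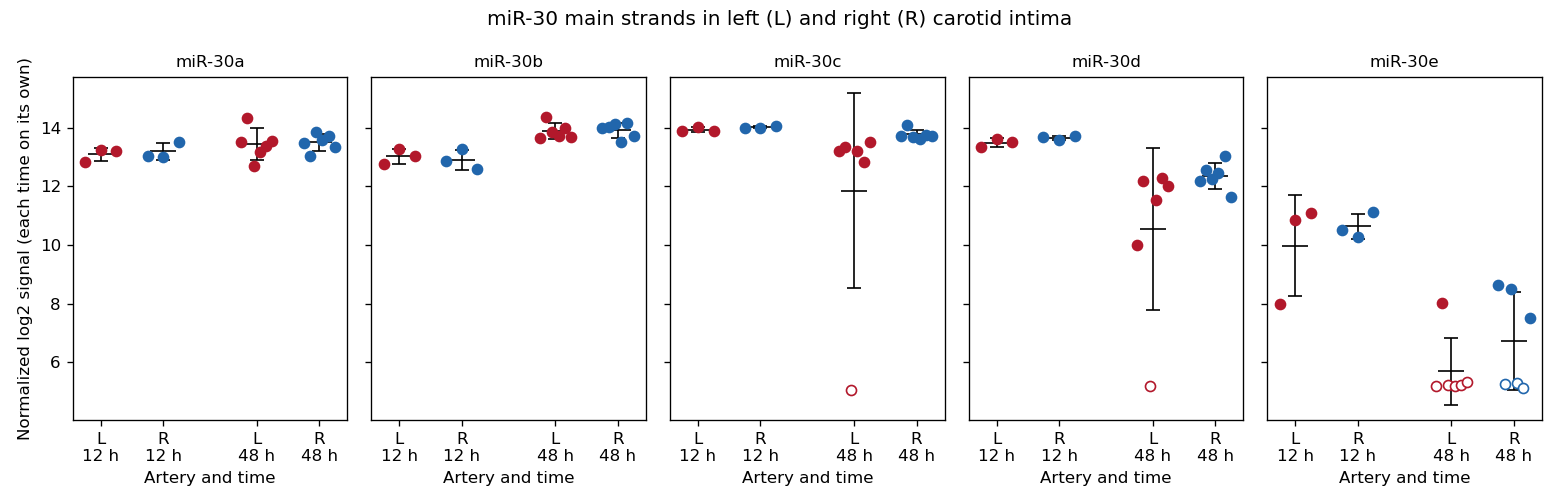
Normalized log2 signal (y axis) of each main strand in the left (L) and right (R) carotid at 12 h (n = 3) and 48 h (n = 6); points are samples (open where the probe was not detected), bars the mean ± SD, and each time was normalized on its own. At 48 h miR-30c was lower in all 6 left samples, with left sample 3 at 5.05, while miR-30a and miR-30b overlapped.

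At 48 h miR-30c and miR-30d had lower mean levels in the ligated left carotid, miR-30e was near the limit of detection, and miR-30a and miR-30b overlapped between the arteries. None of these changes passed the limma test. Of all 407 probes tested, 12 (2.95%) passed, 8 of them higher and 4 lower on the left, and 0 of 5 members did (72 probes had an unadjusted p under 0.05, none of them a member). All 5 fitted changes were below 0, with a median of -1.03, beside -0.000835 over all probes tested, of which 204 were below 0 and 203 above. The median is the value of miR-30e, which was detected on 1 left and 3 right arrays. It was thus tested only through the right group, so the filter favoured a change below 0 and its sign adds no support. The median was -0.55 without left sample 3, with 4 of 5 below 0, beside -0.04 over all probes.

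For miR-30c, the left samples had a lowest, median and highest log2 level of 5.05, 13.20 and 13.53, and the right samples of 13.64, 13.74 and 14.09. Every left sample lay below every right sample, which held for 1 of 5 members and, in the same direction, for 1.47% of all probes tested. The lowest value, in left sample 3, was a raw intensity of 37, where the probe was not detected, and the other 5 left samples spanned 12.83 to 13.53. The fitted change was -1.91 ± 1.26 (log2 ± SE, n = 6 each; limma adjusted p = 0.424), with a 95% interval from -4.65 to 0.82. The exact two-sided permutation test on the same levels gave p = 0.00216, the smallest that 6 against 6 can give, and an adjusted p of 0.0464. The smallest p follows whenever the groups do not overlap, so it restates that result and adds no separate support. By that exact test 19 of 407 probes (4.67%) passed, and 19 (4.67%) did not overlap in either direction.

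Left sample 3 decided the size of the miR-30c change and the limma call. Without it the change was -0.55 ± 0.13 (log2 ± SE, 5 against 6; limma adjusted p = 0.0444), and 14 of 404 probes (3.47%) passed. With any other of the 12 samples left out, the change stayed between -1.85 and -2.25 and the adjusted p between 0.383 and 0.5262. Without left sample 3, the exact permutation test still gave its smallest p of 0.00216, but the adjusted p was 0.0874.

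The scaling of the arrays also mattered for miR-30c. On the authors' processed values all 6 left samples lay below all right samples, and without left sample 3 the change was again -0.55 (limma adjusted p = 0.0395), where 15 of 404 probes (3.71%) passed. With 75th percentile scaling, 4 of 6 left samples lay below the lowest right sample, and on log2 raw signals without normalization 3 of 6 did. Under 75th percentile scaling without left sample 3 the change was -0.88, with a limma adjusted p of 0.349. The lower mean of miR-30c on the left was thus present under each of these scalings, and the call was not.

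**Figure D2:**
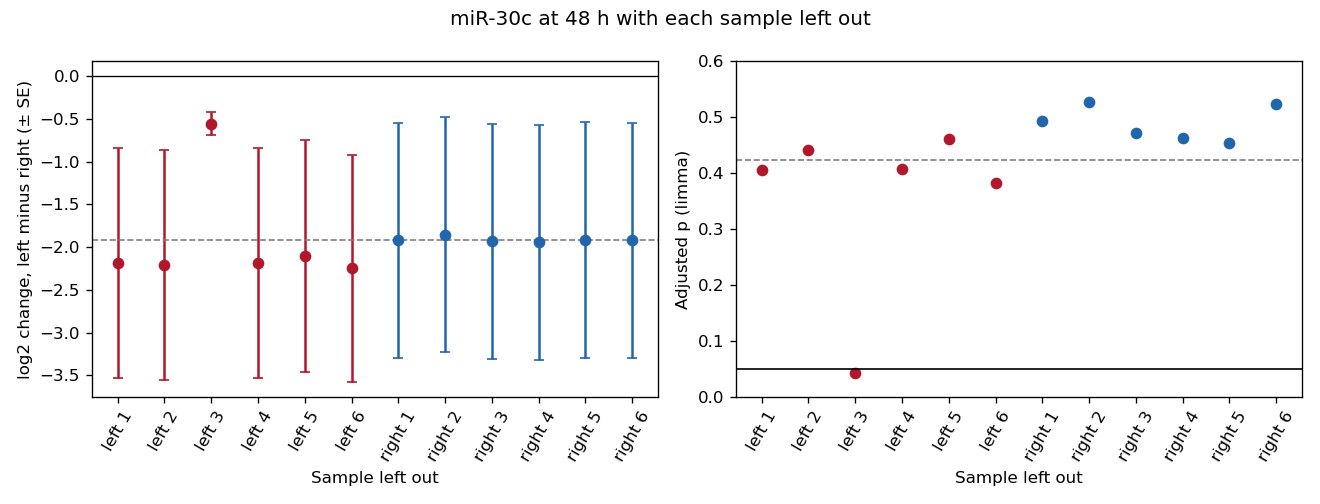
miR-30c at 48 h with each sample left out in turn (x axis): the log2 change, left minus right ± SE (left panel), and its limma adjusted p (right panel), with dashed lines at the values from all 12 samples and a solid line at 0 or at the threshold of 0.05. Without left sample 3 the change was -0.55 and the adjusted p 0.0444, and no other omission passed the threshold.

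miR-30d followed miR-30c in left sample 3. Its left samples had a lowest, median and highest log2 level of 5.17, 11.79 and 12.30, and its right samples of 11.65, 12.35 and 13.04. Left sample 3 was not detected, left sample 1 was the next lowest at 9.996, and the other 4 left samples overlapped the right range or lay just below it. The change was -1.82 ± 1.07 (log2 ± SE, n = 6 each; limma adjusted p = 0.363), with a 95% interval from -4.15 to 0.51, and the exact permutation p was 0.0541. Without left sample 3 it was -0.75 ± 0.43 (limma adjusted p = 0.366).

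miR-30e at 48 h had a lowest, median and highest log2 level of 5.17, 5.22 and 8.02 on the left and of 5.12, 6.40 and 8.63 on the right. The probe was detected in 1 of 6 left samples (sample 2) and 3 of 6 right samples (1, 3 and 6), and the remaining values lay at the background, where they have no order. The change of -1.03 ± 0.78 (log2 ± SE, n = 6 each; limma adjusted p = 0.497) therefore rests on 4 detected samples and is no measured fold.

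miR-30a had a lowest, median and highest log2 level of 12.70, 13.45 and 14.35 on the left and of 13.04, 13.55 and 13.88 on the right. miR-30b had 13.67, 13.80 and 14.38 on the left and 13.51, 14.01 and 14.16 on the right. Both members were detected on all 12 arrays, left sample 3 included, and the left samples held both the highest value and, for miR-30a, the lowest. The changes were -0.07 ± 0.24 for miR-30a (limma adjusted p = 0.905) and -0.03 ± 0.14 for miR-30b (adjusted p = 0.915, n = 6 each). The 95% intervals ran from -0.59 to 0.45 and from -0.35 to 0.28 on the log2 scale. For miR-30a the sign turned without left sample 3 (0.08 ± 0.21) or right sample 3 (0.004). Among the omissions, that of miR-30b turned when left sample 1 or 6, or right sample 3 or 5, was left out, to at most 0.01. On log2 raw signals without normalization the differences of the means were 0.02 for miR-30a and 0.06 for miR-30b. With 75th percentile scaling they were -0.33 and -0.29.

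miR-30b and miR-30d come from neighbouring hairpins of chromosome 15, yet left sample 3 at 48 h had miR-30d at background and miR-30b at 13.85. The same sample had miR-30a at 12.70, the lowest of all 12 samples, and miR-30c at 5.05. The low values in this sample were thus not common to both members of the locus, nor to all members with the seed.

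**Figure D3:**
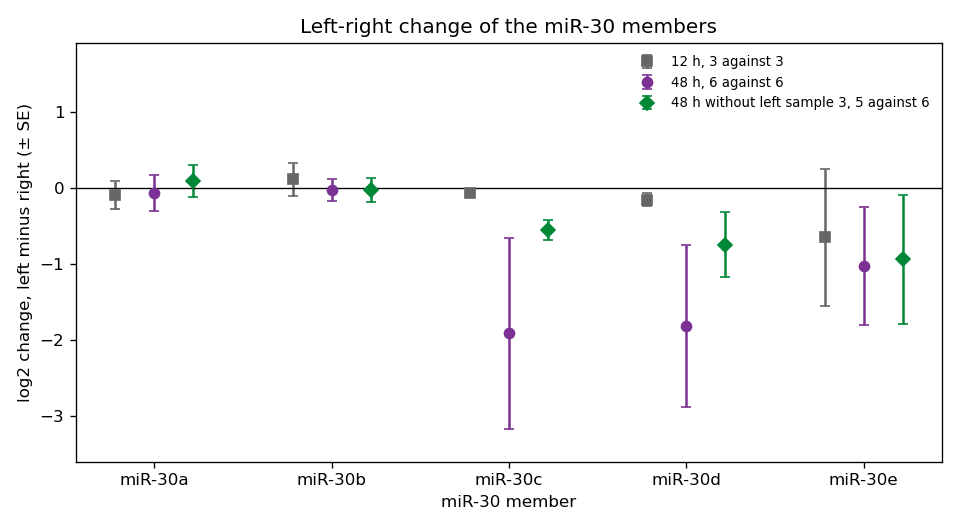
Log2 change, left minus right carotid ± SE (y axis), of each main strand at 12 h (squares), at 48 h (circles) and at 48 h without left sample 3 (diamonds). The 48 h changes of miR-30c and miR-30d shrank from -1.91 and -1.82 to -0.55 and -0.75 without that sample.

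The left-right change was then compared between times in a single fit. The difference, 48 h minus 12 h, was -1.84 ± 1.88 for miR-30c (log2 ± SE, limma adjusted p = 0.739) and -1.66 ± 1.58 for miR-30d (adjusted p = 0.725). When left sample 3 was omitted, these differences shrank to -0.48 (limma adjusted p = 0.383) and -0.59 (adjusted p = 0.764). With all samples it was 0.03 ± 0.38 for miR-30a, -0.14 ± 0.27 for miR-30b and -0.38 ± 1.33 for miR-30e. The miR-30e value is no measured fold, since its probe was detected on 1 left and 3 right arrays at 48 h. Of 474 probes tested, 1 (0.211%) passed, and 0 of 5 members did (49 probes had an unadjusted p under 0.05, none of them a member). The miR-30c change at 48 h was thus not shown to differ from that at 12 h.

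Levels across the 4 groups are a description, since time and deposited table coincide. With all arrays normalized together, miR-30b stood highest in the right carotid at 48 h (13.95 ± 0.24, SD), followed by the left at 48 h (13.92 ± 0.22), the left at 12 h (13.04 ± 0.24) and the right at 12 h (12.93 ± 0.32). The 48 h samples (from 13.55) lay above all 12 h samples (up to 13.28), while the arteries within a time did not differ beyond their spread. How many of all probes separated by time was not counted, here or for miR-30d below. Whether the separation is particular to these members is therefore not known. miR-30a had the same leading pair, 13.54 ± 0.33 on the right and 13.45 ± 0.54 on the left at 48 h, then 13.20 ± 0.26 on the right and 13.10 ± 0.21 on the left at 12 h, and no neighbours differed beyond their spread. The left carotid at 48 h averaged 13.61 ± 0.42 and came first without left sample 3.

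The other members had higher means at 12 h. miR-30d had the order right 12 h (13.62 ± 0.07), left 12 h (13.47 ± 0.13), right 48 h (12.34 ± 0.45) and left 48 h (10.65 ± 2.55), with every 12 h sample above every 48 h sample. The left 48 h mean was 11.65 ± 0.85 and kept its place when left sample 3 was omitted. miR-30e averaged 10.48 ± 0.48 on the right and 9.72 ± 1.94 on the left at 12 h, with left sample 1 inside the 48 h range. Its 48 h groups have no order between them, since 4 of 12 samples were detected. miR-30c had the order of miR-30d, at 13.98 ± 0.03, 13.89 ± 0.07, 13.83 ± 0.15 and 11.94 ± 3.18, and the last group's spread covered the rest. With left sample 3 omitted, that group averaged 13.23 ± 0.28 and was still last. The median probe was higher by 0.22 on the left and 0.13 on the right at 48 h, with quartiles of -1.25 to 1.28 and -0.75 to 0.92. On the left miR-30b differed by 0.89, within the quartiles, and on the right by 1.02, just above them. The difference of miR-30d was -2.82 on the left (left sample 3 included) and -1.28 on the right.

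The passenger strands of the same hairpins were read as well. Of 5 on the array, 4 were tested at each time, and 0 of 4 passed at either. miR-30b* was detected on no array at 12 h and in 2 right samples at 48 h, and was not tested. miR-30c-2* and miR-30e* were detected on every array of both times.

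miR-30c-1*, the passenger strand of the chromosome 4 hairpin, had a fitted change of the other sign than miR-30c at 48 h. Its lowest, median and highest log2 level was 5.27, 11.78 and 12.12 on the left and 5.15, 5.29 and 11.21 on the right. It was detected in 5 of 6 left samples (all but sample 6) and 2 of 6 right samples (5 and 6), and left sample 3, where miR-30c was at background, had miR-30c-1* at 12.08. The change was 3.56 ± 1.53 (log2 ± SE, n = 6 each; limma adjusted p = 0.254), so it did not pass. The probe was tested only through the left group at 48 h and only through the right group at 12 h. The filter thus favoured the sign at each time, and neither change is a measured fold. At 12 h the left samples stood at 5.83, 5.82 and 7.63 and the right samples at 5.82, 10.87 and 8.90, a change of -2.11 ± 1.36 (limma adjusted p = 0.566). The difference between the times was 5.66 ± 2.49 (limma adjusted p = 0.431).

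miR-30c-2*, from the chromosome 1 hairpin, had medians of 11.15 on the left and 11.08 on the right at 48 h, where the arteries overlapped. Its change was 0.25 ± 0.35 (log2 ± SE, n = 6 each; limma adjusted p = 0.749). miR-30e*, the partner of miR-30e, had a lowest, median and highest level of 11.55, 12.17 and 12.85 on the left and of 12.33, 12.67 and 12.95 on the right. miR-30e* was thus measured in all 12 samples at 48 h, while miR-30e was detected in 4. The change of miR-30e* was -0.47 ± 0.24 (log2 ± SE, n = 6 each; limma adjusted p = 0.299).

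miR-30a* was detected less widely at 48 h than at 12 h. At 12 h it was detected on all 12 arrays, at 12.69, 12.87 and 12.95 on the left and 13.01, 12.92 and 13.19 on the right. At 48 h it was detected in 2 of 6 left samples (1 and 4) and 3 of 6 right samples (3, 4 and 5), with medians of 6.12 and 7.70 and a change of -1.91 ± 0.88 (log2 ± SE, n = 6 each; limma adjusted p = 0.272). The probe was not detected in the remaining 7 samples, so neither the change between the arteries at 48 h nor that between times is a measured fold. At 48 h it was tested only through the right group, which favoured a change below 0. Its main strand miR-30a was detected on every array of both times. miR-384-5p, which shares the seed, was detected on 0 of 12 arrays at 12 h and 1 of 12 at 48 h and was not tested.

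**Figure D4:**
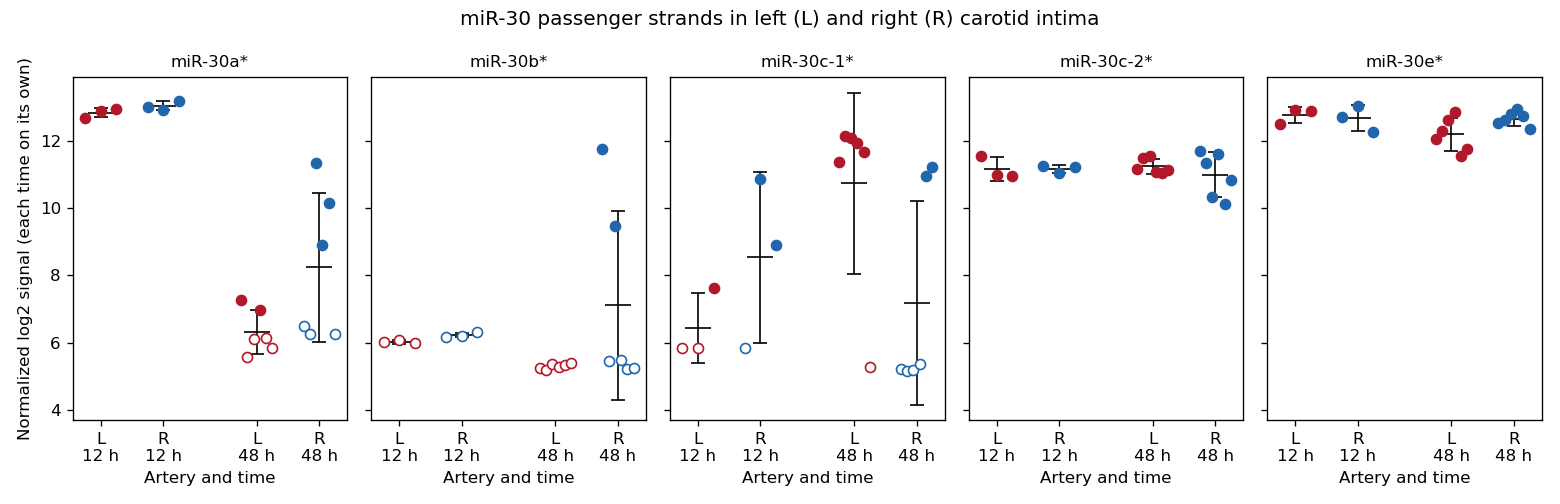
Normalized log2 signal (y axis) of the passenger strands in the left (L) and right (R) carotid at 12 h (n = 3) and 48 h (n = 6); points are samples (open where the probe was not detected) and bars the mean ± SD. At 48 h miR-30c-1* was detected in 5 left and 2 right samples, and miR-30a* in 2 left and 3 right samples.

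Other miRNAs published as raised by laminar flow were read from the same fit. At 12 h all 11 of the list were tested and 0 passed. Changes below 0 numbered 8, beside 239 among all 430 probes tested, and both medians were -0.05. The largest changes were above 0, at 3.03 for miR-101a and 1.22 for miR-19b (log2, n = 3 each). Their limma adjusted p were 0.495 and 0.373. For both, every left sample lay above every right sample, and miR-101a was not detected in right sample 3. For miR-145, at -0.27, every left sample lay below every right sample. At 48 h 10 of the list were tested and 1 passed, miR-23b, beside 2.95% of all probes tested. It was lower on the left by 0.22 ± 0.05 on the log2 scale (limma adjusted p = 0.0315), with group means of 14.36 on the left and 14.58 on the right. The arteries overlapped, with left samples up to 14.47 and right samples from 14.43. That call was lost in 9 of 12 fits that each left out 1 sample (adjusted p between 0.0143 and 0.0739). The list's median at 48 h was -0.27, with 8 of 10 below 0, beside 204 of 407 over all probes tested. Its endothelial members took both signs, with miR-126-3p at 1.86 ± 0.87 and miR-126-5p at -0.63 ± 0.51 (log2 ± SE, n = 6 each; limma adjusted p = 0.272 and 0.533). The list was chosen with earlier results of these data known, and its counts are not independent evidence of a direction.

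The probes whose pattern over the 12 samples at 48 h was most like the mean of the 5 members were miR-29a (Pearson r = 0.93), miR-152 (0.92), let-7g (0.91), let-7i (0.91) and miR-26b (0.90), among 402 probes compared. The samples share arrays and normalization with the members. Without left sample 3 the same correlations were 0.36, 0.37, 0.24, 0.36 and 0.31 over 11 samples, at ranks 33, 31, 72, 34 and 50. The likeness thus rested on left sample 3, in which miR-29a, miR-152, let-7g and miR-26b were also more than 3 log2 units below the next lowest left sample.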

How the data were processed

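Per the labels' protocols, RNA was extracted with a Qiazol-based kit. Both deposited tables, 1 per time, hold a signal intensity (an average over beads) and a detection p-value per array for 655 probes, exported by the authors from GenomeStudio 2010.2 per the submitters' processing notes. Background subtraction, slide and scan date are not given in the sources used here. Column names carry artery and number but no time. The time of each table was found through the authors' processed intensity values (rank correlation at least 0.999976 with its own columns, at most 0.759 with the other table's).

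Arrays of 1 artery with a rank correlation above 0.98 were averaged as repeat arrays. The neqc function of limma 3.58.1 in R 4.3.3 estimated the background from detection p-values, quantile-normalized within each time and added an offset of 16 before log2. Probes with a detection p under 0.05 on at least 3 arrays of a group were tested with lmFit and eBayes (intensity trend, two-sided), adjusted over all probes tested. The fit was tested on simulated normal data with a capped spread. That spread was smaller than that of miR-30c and miR-30d on the left at 48 h, so the simulation does not cover such values. Exact permutation tests, 75th percentile scaling, other filters and backgrounds, the processed values, array weights, a replicate block and each sample left out in turn were alternatives.

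Named were the 5 members, their passenger strands, probes with the same seed, the 5 probes of most like pattern and a laminar flow list. The members and lists were chosen with earlier results of these data known. The labels do not say whether same-numbered left and right samples share an animal, and no pairing was used. Mature sequences came from RefSeq.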

Additional observations from a re-analysis of the deposited data

Results flagged for a closer look

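A sample was looked at again where its gap to the nearest other sample of its 48 h group took up more of the group's range than Dixon's critical value for 6 samples, which chance does in about 1 in 20 groups. For miR-30c on the left, sample 3 was lowest at 5.05, with the others from 12.83 to 13.53. For miR-30c on the right, sample 2 was highest at 14.09, with the others from 13.64 to 13.76. For miR-30d on the left, sample 3 was lowest at 5.17, with the others from 9.996 to 12.30. For miR-30e on the left, sample 2 was highest at 8.02, and the other 5, from 5.17 to 5.33, were not detected. For miR-30c-1* on the left, sample 6 was lowest at 5.27, with the others from 11.36 to 12.12. These are normalized log2 levels, and their causes were not tested.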

How the results depend on the processing

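The 15 member results (5 members at 12 h, at 48 h and between times) had 353 values under alternatives, of which 3 passed the threshold, all for miR-30c at 48 h, and 25 had the other sign than the reported value. At 48 h 1 member passed by the exact permutation test and 1 on the authors' processed values without left sample 3 (chosen after seeing the data), and 0 to 1 passed with each sample left out in turn. At 12 h and between times 0 members passed under every alternative, the omissions included. Over all probes at 12 h, 2 calls became 1 without background correction, on the authors' values, with an offset of 50 or with no filter on dim probes, 0 with probes detected on all arrays, 72 with every array as a sample, and 1 to 6 with each sample left out in turn. At 48 h, 12 calls became 4 with 75th percentile scaling, 25 with no filter, 21 with array weights, 7 with no intensity trend, 19 by the exact permutation test, and 0 to 15 with each sample left out (0 when left sample 5, 4 when right sample 2 and 6 when left sample 4 was omitted). Chosen after seeing the data, omitting the 3 right samples with the fewest detected probes gave 6, and 75th percentile scaling without left sample 3 gave 3. Between times, 1 call became 3 with 75th percentile scaling or array weights, 0 on the authors' values or with probes detected on all arrays, 6 with no filter, 17 with every array as a sample and 1 to 9 with each sample left out. With the replicate number as a block, 0 probes passed at 12 h and 0 at 48 h, with 0 members. The labels do not say whether a number marks an animal. Deviations of same-numbered left and right samples had correlations of 0.02 to 0.06 at 12 h and -0.17 to 0.02 at 48 h. The right sample most like each left one had its own number in 3 of 3 cases at 12 h and 0 of 6 at 48 h. At 12 h those correlations were at most 0.06, so the matches do not show whether a number marks an animal. Between times, 75th percentile scaling moved the median change of all probes from 0.07 to -0.15. The causes of these shifts were not tested.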
